A study of Mus musculus with 144 samples.

Results

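Kupffer cell marker genes were followed through the liver of mice over the day, in wild-type animals, in animals labelled Bmal1-/- and in nuclear and polysomal RNA. The markers were 10 of the 51912 genes in the count table, chosen by name: Clec4f, Timd4, Marco, Cd5l, Vsig4, C1qa, C1qb, C1qc, Adgre1 and Csf1r. All 10 had enough counts for the tests of level and rhythm over all replicates. Messenger RNA was read by QuantSeq, a method that counts 1 tag next to the poly(A) tail of each transcript, in 144 libraries of male C57BL/6J mice kept in 12 h light and 12 h dark with food always available. Wild-type mice gave 3 series, total RNA, nuclear RNA (nuclei of frozen liver spun through a sucrose cushion) and polysomal RNA (ribosome-bound RNA from a sucrose gradient, in buffer with cycloheximide), and Bmal1-/- mice gave 1 series of total RNA. Livers were sampled at 6 zeitgeber times (ZT, the hour counted from lights on), ZT2, ZT6, ZT10, ZT14, ZT18 and ZT22, with 6 libraries per time in a series. The labels give no ages, no breeding of the Bmal1-/- animals and no part of the gene that was altered, and they do not say whether the replicates were separate animals, so p-values measure the spread between libraries.

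Kupffer cells are the resident macrophages of the liver. They sit inside the sinusoids, the fine vessels between hepatocytes, where they take up bacteria, worn red blood cells and debris from portal blood. They depend on signalling through the receptor CSF1R, and their identity is maintained by transcription factors such as PU.1 (Spi1), SPIC, LXR-alpha (Nr1h3) and ID3. BMAL1, encoded by Arntl, pairs with CLOCK at E-box sequences and drives the circadian clock, which runs in macrophages as well as in hepatocytes. Bulk liver RNA is dominated by hepatocytes, so these markers read a small compartment.

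The promoters are shown because PU.1 and its relatives bind purine-rich sequences built on the ETS core. Whether such sequences have a part in any change of the markers was not tested. RefSeq promoter sequences (GRCm38.p6) matched 7 of the 10 markers, all but C1qa, Adgre1 and Csf1r. The 250 bases before the start were searched on both strands for a pair of such purine-rich motifs, whose matches can overlap, and for the E-box. The first, spelled GAGGAA, was present in 5 of 7 markers, against 23.3% of 32851 promoters of the same length. The other, spelled GGAAGT, was present in 5 of 7 as well, against 19.7% of all promoters. At least 1 of these motifs was found in 7 of 7 markers and in 36.7% of all promoters. The E-box, spelled CACGTG, was present in 0 of 7 markers and in 6.02% of all promoters. The 100 bases before the start are printed for 4 markers with a match there, with matches on either strand in capitals.
Cd5l (chr3:87357781-87357880, plus strand): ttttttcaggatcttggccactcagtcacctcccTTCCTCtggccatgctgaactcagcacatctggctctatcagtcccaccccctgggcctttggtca
C1qb (chr4:136886201-136886300, minus strand): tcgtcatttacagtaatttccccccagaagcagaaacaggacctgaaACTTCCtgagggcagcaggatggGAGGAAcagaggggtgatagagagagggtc
Clec4f (chr6:83656117-83656216, minus strand): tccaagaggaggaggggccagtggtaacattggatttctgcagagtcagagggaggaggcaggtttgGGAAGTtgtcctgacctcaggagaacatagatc
Vsig4 (chrX:96293439-96293538, minus strand): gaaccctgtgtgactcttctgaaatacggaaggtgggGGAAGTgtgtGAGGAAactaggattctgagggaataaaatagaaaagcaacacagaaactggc
Cd5l and C1qb carry a match in the reverse orientation, and Vsig4 carries both sequences a few bases apart. Timd4 had the second motif at -72 to -67, Marco had the first at -146 to -141, and C1qc had both, overlapping, between -195 and -188. A match of 6 letters is a description of the sequence and not a binding site, and the shares of promoters with a match were not tested.

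The libraries held 5316601 to 9831142 gene counts in the wild-type total series, 1662449 to 6620128 in the nuclear, 2578048 to 13068044 in the polysomal and 4379549 to 14281894 in the Bmal1-/- series. Levels are CPM, a gene's count scaled to a fixed library total, and changes are log2 ratios from edgeR's quasi-likelihood test, called at an adjusted p (Benjamini-Hochberg) under 0.05 over all genes tested. The tissue label was matched by the hepatocyte markers, whose sum in total RNA of wild-type liver was 90016 CPM ± 11826 (SD, n = 36). The nuclear RNA Neat1 averaged 1621 CPM in the nuclear series, 167 CPM in total and 9.40 CPM in polysomal RNA. Arntl tags were higher in Bmal1-/- (11.5 against 6.73 CPM), and since tags at the 3′ end may lie outside the altered part they do not check the label. The labels name male mice only, but Xist, a transcript of females, reached 165 to 4363 CPM in a single ZT22 library of each series, while no other library exceeded 5.67 CPM. In wild-type total RNA the libraries numbered 1 to 3 differed from those numbered 4 to 6 in 26.9% of genes, so results are given for each set of numbers too.

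In Bmal1-/- total RNA, 9 of the 10 markers were lower than in wild-type total RNA and 0 were higher. The scavenger receptor gene Marco showed the widest change, and Clec4f, the lectin gene used as the defining marker of mouse Kupffer cells, was at 68.7% of its wild-type mean. Over all 12082 genes 44.1% were called and 21.7% were lower. The median log2 change of the markers was -0.59, against 0.01 over all genes. In bulk RNA, fewer Kupffer cells and less marker RNA per cell cannot be told apart. Without the wild-type library highest in Marco, or without the Xist-high library of each of these series, 9 of 10 were again lower.

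Uptake receptors were lower by different amounts. Clec4f, which binds galactose-bearing glycoproteins, ran from 20 to 52.4 CPM (median 32.8) over the 36 wild-type libraries and from 8.13 to 37.3 CPM (median 22.6) in Bmal1-/-. The ranges overlapped, and 13 of 36 Bmal1-/- libraries lay below the lowest wild-type library. Clec4f fell by 0.63 on the log2 scale (SE 0.10, adjusted p 2.03e-07), with a lower mean at 6 of 6 times. Timd4, the phosphatidylserine receptor gene of embryo-derived Kupffer cells, ran from 1.13 to 15.6 CPM (median 4.49) and from 1.28 to 6.00 CPM (median 2.84). The Bmal1-/- range lay inside the lower part of the wild-type range, and the change was -0.71 (SE 0.14, adjusted p 2.65e-05, lower at 6 of 6 times). Marco, which binds bacteria and particles, ran from 1.35 to 134 CPM (median 3.77) in wild type and from 0 to 19.4 CPM (median 1.4) in Bmal1-/-. Its change was -1.52 (SE 0.34, adjusted p 0.000217), and 17 Bmal1-/- libraries lay below the lowest wild-type library. A single wild-type library set much of that size, since without the highest Marco library the change was -1.09 (adjusted p 0.00148). Vsig4, the complement receptor CRIg that captures circulating bacteria, averaged 38.4 CPM ± 15.4 in wild type and 31.3 CPM ± 9.73 in Bmal1-/- (SD, n = 36), a change of -0.38 (SE 0.11, adjusted p 0.00458).

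The secreted products divided. C1qa, C1qb and C1qc encode the 3 chains of C1q, the recognition unit of the classical complement pathway, and lie next to each other on chromosome 4. C1qa ran from 25.4 to 84.8 CPM (median 39.8) in wild type and from 15.7 to 51.6 CPM (median 28.0) in Bmal1-/-, a change of -0.58 (SE 0.10, adjusted p 1.10e-06). C1qb changed by -0.60 (SE 0.10, adjusted p 2.10e-06) and C1qc by -0.46 (SE 0.11, adjusted p 0.000317). All 3 chains were thus lower by similar amounts, and their ratios are tested further on. Cd5l, which encodes the secreted inhibitor of apoptosis AIM, was the exception among the markers. It ran from 38.1 to 412 CPM (median 109) in wild type and from 41.2 to 274 CPM (median 101) in Bmal1-/-, ranges that overlapped almost whole. Its change of -0.26 did not pass the test (SE 0.15, adjusted p 0.143, 95% interval -0.55 to 0.02), although it did without replicate 4 (-0.37, adjusted p 0.0429).

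The surface receptors shared with other macrophages were lower as well. Adgre1, which encodes the macrophage antigen F4/80, ran from 4.15 to 46.1 CPM (median 9.34) in wild type and from 0.963 to 13.5 CPM (median 6.17) in Bmal1-/-. It changed by -0.77 (SE 0.15, adjusted p 2.38e-05) and was lower at 6 of 6 times. Csf1r, the receptor for the survival factors CSF1 and IL-34, ran from 36.5 to 179 CPM (median 65.5) and from 23.2 to 101 CPM (median 52.2), a change of -0.50 (SE 0.12, adjusted p 0.000543). Both genes overlapped between genotypes, and for each the highest library was a wild-type one.

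**Figure D1:**
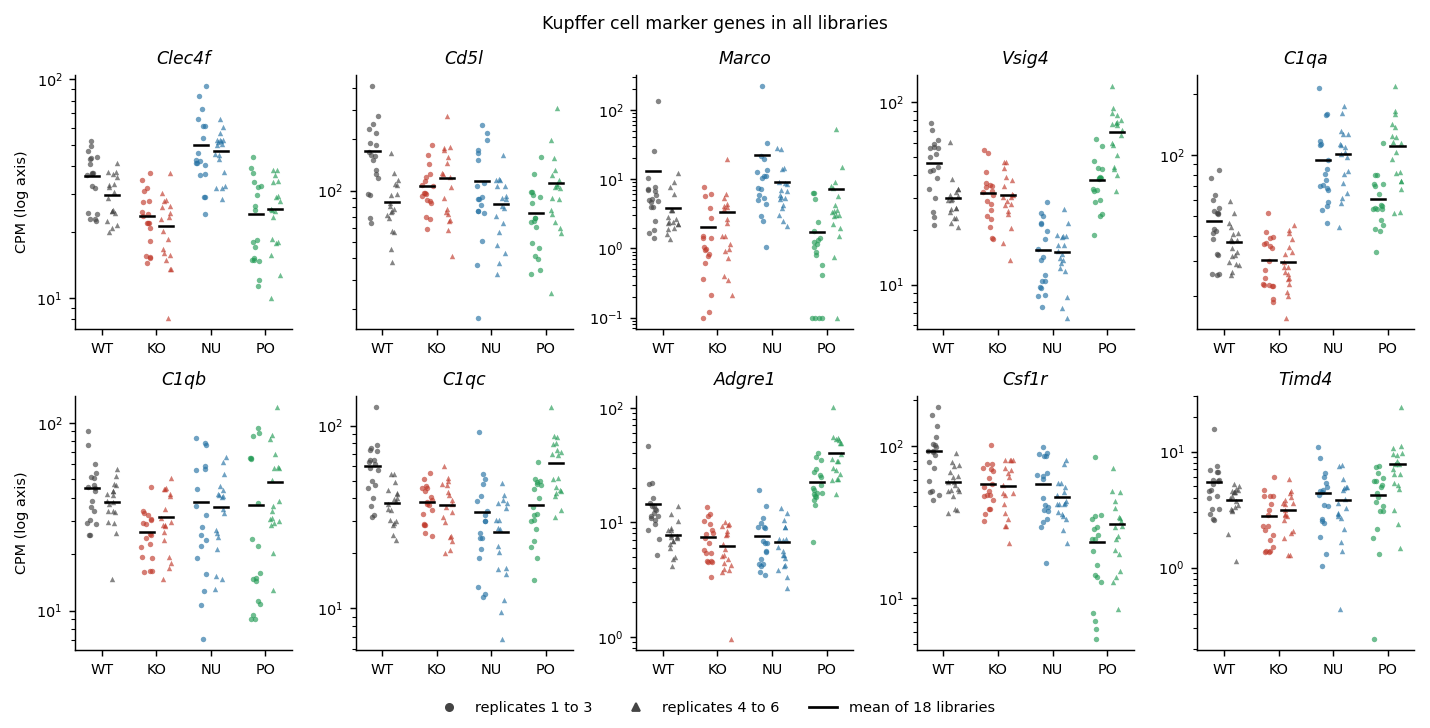
Levels of the 10 markers in all 144 libraries, in CPM on a log axis with a panel for each gene (values of 0 are drawn at 0.1). Circles are libraries numbered 1 to 3, triangles those numbered 4 to 6, and bars the mean of each 18; the Bmal1-/- libraries sit lower than wild-type total RNA for most markers, and Marco has single libraries at 134 CPM in total and 219.7 CPM in nuclear RNA.

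The Bmal1-/- difference was also taken within each set of replicate numbers. Within numbers 1 to 3 all 10 markers were lower in Bmal1-/- (38.8% of genes called), from -0.62 for Vsig4 and -0.67 for Clec4f to -1.02 for Timd4 and -2.56 for Marco. Within numbers 4 to 6, 5 of 10 were called, all lower (33.5% of genes called). These were Clec4f (-0.62, adjusted p 0.000513), C1qa (-0.47, adjusted p 0.000641), Adgre1 (-0.46, adjusted p 0.0379), C1qb (-0.42, adjusted p 0.0179) and Timd4 (-0.41, adjusted p 0.0465). Clec4f had nearly the same change in both sets. The other markers did not pass there, with Marco at -0.63 (adjusted p 0.208), Csf1r at -0.24 (0.202), C1qc at -0.16 (0.373), Vsig4 at -0.10 (0.582) and Cd5l at 0.31 (0.161). The difference between the sets passed its own test for Cd5l (1.01, SE 0.25, adjusted p 0.00246) and C1qc (0.53, SE 0.19, adjusted p 0.0407), 2 of 10, both higher, against 17.6% of genes (8.61% higher and 8.96% lower). That of C1qc was lost without the highest Marco library (0.44, adjusted p 0.0762) and without replicate 1, 2, 3, 5 or 6 (adjusted p 0.0638 to 0.112). For Clec4f the difference between sets was 0.04 (95% interval -0.34 to 0.42).

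**Figure D2:**
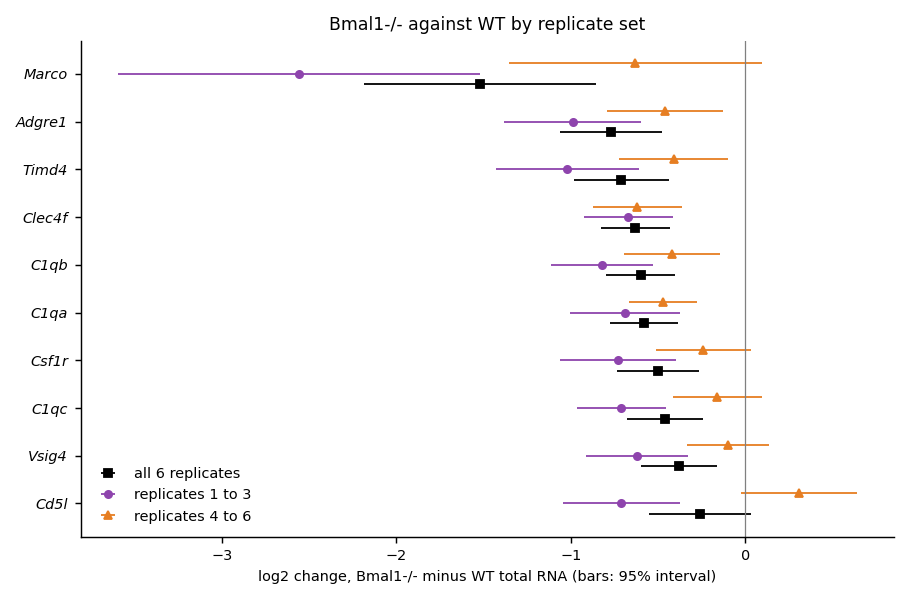
Log2 change of each marker, Bmal1-/- minus wild-type total RNA, with 95% intervals, for all 6 replicate numbers (squares), numbers 1 to 3 (circles) and numbers 4 to 6 (triangles). Clec4f lies near -0.6 in each, whereas Cd5l lies at -0.71 in numbers 1 to 3 and at 0.31 in numbers 4 to 6.

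The sets differed in the wild-type libraries and not detectably in the Bmal1-/- libraries. The sum of the 10 markers averaged 532 CPM in wild-type numbers 1 to 3 and 332 CPM in numbers 4 to 6, and 325 and 336 CPM in Bmal1-/-. In wild type 6 of 10 were lower in numbers 4 to 6 (13.3% of genes lower and 13.6% higher), namely Cd5l (172 to 86.2 CPM, log2 -0.92), Adgre1 (14.5 to 7.74 CPM, -0.80), C1qc (-0.59), Csf1r (-0.58), Vsig4 (-0.57) and Marco (-1.19, adjusted p 0.0478). Marco lost that call without its highest library (-0.59, adjusted p 0.141) and without replicate 1, 2, 4, 5 or 6 (adjusted p 0.0545 to 0.257). In Bmal1-/- 0 of 10 differed by edgeR (22.8% of genes called, 0 of 10 at an unadjusted p under 0.05). In nuclear RNA 0 of 10 differed (5.87% of genes, 3 of 10 at an unadjusted p under 0.05). Polysomal RNA went the other way, with 6 of 10 higher in numbers 4 to 6 (19.9% of genes called, 8.70% higher): C1qa 0.74, Vsig4 0.76, C1qc 0.68, Adgre1 0.70, Marco 1.66 and Timd4 0.77. The count fell to 3 without polysomal replicate 5.

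Blood cell markers moved with the sets. In wild-type total RNA the summed neutrophil list averaged 25.2 CPM in numbers 1 to 3 and 3.69 CPM in numbers 4 to 6 (2 of 2 tested genes lower). The lymphocyte list went from 49.1 to 22.2 CPM (3 of 3 lower) and the red blood cell list from 4002 to 1984 CPM (5 of 5 lower). General macrophage genes were lower too, from 1003 to 849 CPM, with 13 of 20 lower and 1 higher. Sinusoidal endothelial markers were at 494 and 499 CPM, with 7 of 16 higher and 1 lower. The sets differed in the hepatocyte list too, which summed to 95156 and 84876 CPM in wild-type total RNA. In Bmal1-/- it summed to 74057 and 89899 CPM. In polysomal RNA the sums for numbers 1 to 3 and 4 to 6 were 3.60 and 34.6 CPM for neutrophil, 22.9 and 61.3 CPM for lymphocyte and 7083 and 12176 CPM for red blood cell genes, opposite in order to total RNA. The part of blood cells in the marker differences was not tested.

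By time of day the Bmal1-/- difference passed the test at some hours. The median log2 change of the markers was below 0 at every time sampled. It was -0.27 at ZT2, -0.69 at ZT6, -0.81 at ZT10, -0.31 at ZT14, -0.31 at ZT18 and -0.87 at ZT22. Calls at some hours and not at others do not show that the hours differ. Of the 60 tests of a marker at a time, 13 passed and all were lower: 6 of 10 at ZT10 (16.4% of genes called, 8.05% lower), 4 at ZT22 (6.97% called, 3.69% lower), 2 at ZT6 (10.1% called, 5.10% lower) and 1 at ZT18 (12.7% called, 5.91% lower). At ZT2 (9.76% called, 4.66% lower) and ZT14 (9.73% called, 4.97% lower) edgeR called 0 of 10, with 0 of 10 at an unadjusted p under 0.05 and 0 of 10 by DESeq2. At ZT22 C1qb ran from 41.1 to 89.9 CPM (median 46.2) in wild type and from 14.8 to 34.6 CPM (median 26.1) in Bmal1-/-. The groups of 6 did not overlap there, and the log2 change was -1.17 (adjusted p 0.00179). They were also apart for C1qb at ZT10 and for Timd4 at 2 times, and for no other marker at any time. Over all genes 20.1% were apart at 1 or more times, so this does not set the markers off from genes at large. At ZT10 Timd4 ran from 4.14 to 15.6 CPM (median 4.54) in wild type and from 1.28 to 3.53 CPM (median 2.37) in Bmal1-/-, a change of -1.49 (adjusted p 0.00120). The size of that change leans on wild-type replicate 2, since the other wild-type libraries were at 4.14 to 5.73 CPM. That library was the highest of its group for each of the 6 markers called at ZT10. Without it 11 of the 60 tests passed, all lower. Leaving out all libraries numbered 2, or all numbered 3, gave 4 calls in each case, and within numbers 4 to 6 there was 1 call, Cd5l at ZT2, which was higher (1.33, adjusted p 0.0383).

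**Figure D3:**
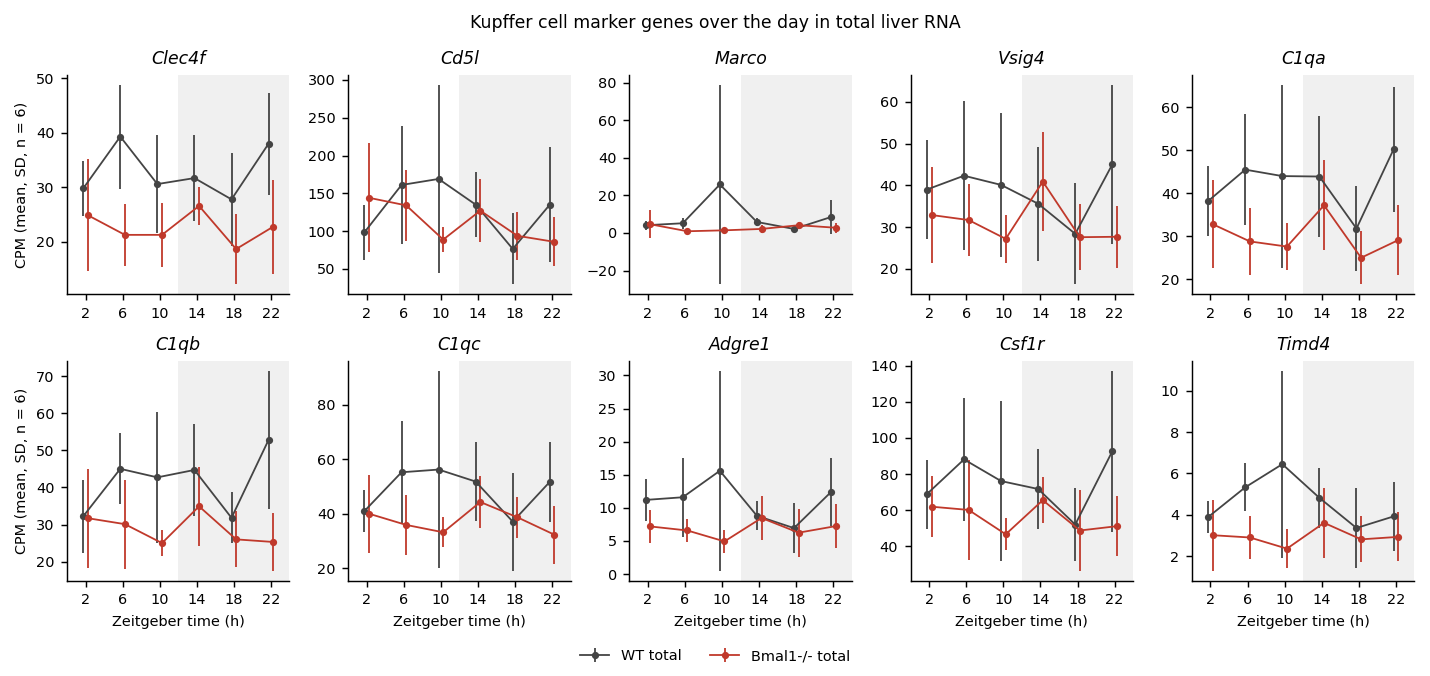
Mean levels in CPM with SD (n = 6 libraries) of the 10 markers at each zeitgeber time in wild-type (dark) and Bmal1-/- (red) total RNA, with the dark phase shaded. The wild-type mean is lowest at ZT18 for every marker, the gap is wide at ZT10 and ZT22, and the long bars at ZT10 include 1 library with high Marco, Cd5l and Adgre1.

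No daily rhythm was detected in the markers. A 24 h curve was called by edgeR for 0 of 10 in wild-type total RNA (18.9% of genes), nuclear (5.99%), polysomal (7.90%) and Bmal1-/- (0.00825%), and DESeq2 also called 0 of 10 in each. At an unadjusted p under 0.05 there were 1, 0, 1 and 1 markers in the same order. The nearest in wild type was Timd4, with a fitted peak-to-trough ratio of 0.73 on the log2 scale (p 0.0189, adjusted p 0.0821), which passed without replicate 1 (adjusted p 0.0386). A different rhythm between series was called for 0 of 10 in Bmal1-/- (5.18% of genes), nuclear (0%) and polysomal RNA (0%), with 1, 0 and 0 at an unadjusted p under 0.05. That 1 was Marco (adjusted p 0.0696), which DESeq2 called (adjusted p 0.0355), while DESeq2 called 0 of 10 in the nuclear and polysomal comparisons. The markers still shared a low point: the time mean was lowest at ZT18 for 10 of 10 in wild-type total RNA, 10 of 10 in nuclear and 9 of 10 in polysomal RNA, but for 2 of 10 in Bmal1-/-. In wild type the sum averaged 298 CPM ± 126 at ZT18 and 507 CPM ± 338 at ZT10 (SD, n = 6). Markers in the same 6 libraries are not independent of each other, so these counts carry no test. Nor are the series clearly separate, as the mean of the markers correlated at 0.59 between same-numbered nuclear and total libraries. The share of all genes lowest at ZT18 was not determined. The counts therefore neither set the markers off from genes at large nor show a difference between genotypes.

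Nuclear RNA held the markers in unequal proportion to total RNA. Of 10, 8 were called, 3 higher and 5 lower (83.8% of genes called, 41.6% higher and 42.1% lower). These are shares of each library's counts, not amounts per cell. C1qa ran from 44.1 to 216 CPM (median 89.8) in nuclear RNA against 25.4 to 84.8 CPM (median 39.8) in total, and 19 nuclear libraries lay above the highest total one. Its log2 change was 1.19 (SE 0.13, adjusted p 1.53e-13, higher at 6 of 6 times). Vsig4 moved the opposite way, from 6.58 to 28.4 CPM (median 14.4) in nuclear against 20.7 to 77.2 CPM (median 32.9) in total RNA. Its change was -1.37 (SE 0.13, adjusted p 3.72e-16). The groups of 6 were apart at 3 of 6 times for Vsig4, at 2 for C1qa and at no time for the other markers. Over all genes 55.2% were apart at 1 or more times. Clec4f was higher in nuclear RNA (0.54, SE 0.11, adjusted p 5.02e-06), and C1qc (-0.74), Adgre1 (-0.66) and Csf1r (-0.56) were lower. Marco (0.84, adjusted p 0.0193) and Cd5l (-0.39, adjusted p 0.0384) passed less firmly: Marco was lost without replicate 3 (0.76, adjusted p 0.0504) or 6 (0.74, adjusted p 0.0607), and within numbers 1 to 3 (0.78, adjusted p 0.172). Cd5l was lost without the libraries highest in Marco (-0.31, adjusted p 0.0794), without those high in Xist (-0.34, adjusted p 0.0694), and without replicate 1 (-0.22), 2 (-0.30) or 5 (-0.35). Nor was Cd5l called within numbers 1 to 3 (-0.48, adjusted p 0.0742) or 4 to 6 (-0.18, adjusted p 0.270). C1qb (-0.18, 95% interval -0.50 to 0.15) and Timd4 (-0.23, -0.55 to 0.08) did not pass, although C1qb did without replicate 3 (-0.41, adjusted p 0.0117). The difference between the replicate sets was called for 0 of 10 by edgeR (2.44% of genes, 0 at an unadjusted p under 0.05).

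For 7 of 10 markers the polysomal level differed from the total level, 3 higher and 4 lower (76.0% of genes called, 38.8% higher and 37.2% lower). Adgre1 was the most enriched, from 6.75 to 101 CPM (median 26.9) in polysomal against 4.15 to 46.1 CPM (median 9.34) in total RNA. Its change was 1.48 (SE 0.16, adjusted p 9.41e-13). The groups of 6 were apart at 2 of 6 times for Adgre1, 3 for Csf1r, 1 for C1qa and no time for the other markers. Over all genes 45.9% were apart at 1 or more times. Csf1r was the most depleted, from 5.43 to 83.9 CPM (median 25) against 36.5 to 179 CPM (median 65.5). Its change was -1.54 (SE 0.17, adjusted p 1.47e-12), and 30 of 36 polysomal libraries lay below the lowest total one. Both genes encode membrane receptors, and their tags went opposite ways. C1qa (0.95, adjusted p 2.70e-10) and Vsig4 (0.41, adjusted p 0.00407) were higher, and Clec4f (-0.48, adjusted p 1.89e-05), Cd5l (-0.53, adjusted p 0.00219) and Marco (-0.94, adjusted p 0.0138) were lower. C1qb and C1qc (-0.04 each) did not pass, nor did Timd4 (0.33, adjusted p 0.0815), which passed without polysomal replicate 1 (0.40, adjusted p 0.0454).

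The replicate sets changed 8 of 10 polysomal differences, all towards higher values in numbers 4 to 6 (25.6% of genes called, 11.2% higher). Adgre1 was 0.70 in numbers 1 to 3 and 2.19 in numbers 4 to 6 (difference 1.5, adjusted p 1.35e-05), and C1qa was 0.37 and 1.38. Vsig4 (-0.30 and 1.01), C1qc (-0.71 and 0.55), Timd4 (-0.38 and 0.82), Cd5l (-1.22 and 0.18) and Marco (-2.60 and 0.24) had opposite signs in the sets. Only Clec4f (-0.60 and -0.40), Csf1r (-2.0 and -1.12), Adgre1 and C1qa were called in both sets with the same sign. The wild-type total libraries differ between the sets in the opposite direction, as described above, and the part of that in these values was not tested. The labels do not say that a polysomal number marks the same animals as that number in total RNA, and across 36 libraries of the same time and number the mean of the markers correlated at -0.48 between the series, a description. The values within sets, and their difference, hold only if the numbers mean the same in both series. Marco was lost as a polysomal call without replicate 2 (-0.35, adjusted p 0.340) or 3 (-0.76, adjusted p 0.0575), and Vsig4 without replicate 4 (0.27, adjusted p 0.0754) or 5 (0.21, adjusted p 0.187).

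**Figure D4:**
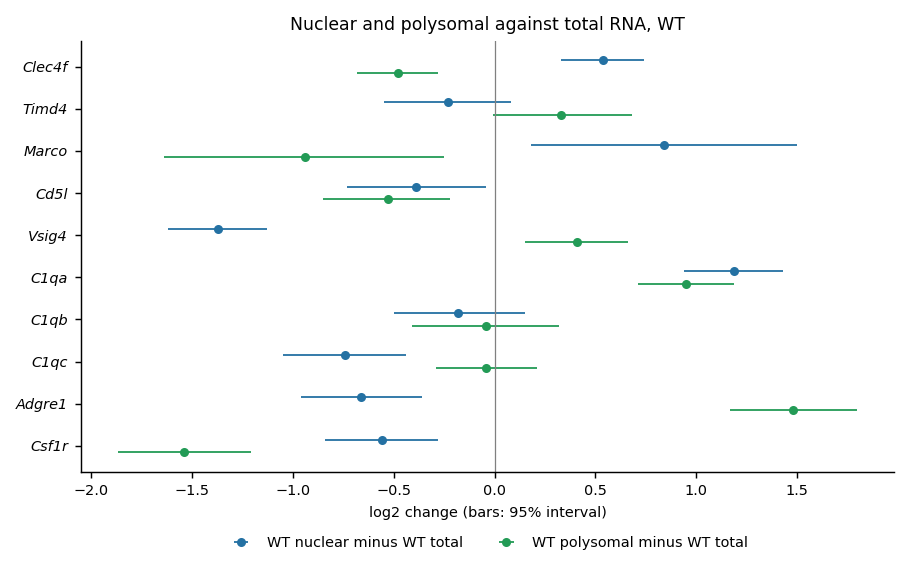
Log2 change of each marker against wild-type total RNA, with 95% intervals over all 36 libraries a series, for nuclear (blue) and polysomal (green) RNA. C1qa lies right of 0 in both, Vsig4 and Adgre1 lie left in nuclear and right in polysomal RNA, and Csf1r lies left in both.

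The C1q chains were set against each other within each library, a comparison chosen after their values were seen. A ratio of genes within a library does not depend on how many Kupffer cells it holds if both are read from the same cells. C1qa to C1qb was 0.802 to 2.59 (median 0.996) in wild-type total RNA, 0.732 to 1.77 (1.02) in Bmal1-/-, 1.24 to 7.55 (2.78) in nuclear and 0.820 to 4.81 (2.55) in polysomal RNA. Total RNA of both genotypes held the chains near 1 to 1, and 26 nuclear and 18 polysomal libraries lay above the highest wild-type one. The mean ratio was 2.84-fold higher in nuclear and 2.33-fold higher in polysomal than in total RNA, at 6 of 6 times each (2-sided permutation test with 100000 resamples within times, p 1e-05, the smallest they can give, adjusted p 2.25e-05 over 9 tests). C1qa to C1qc was 3.98-fold higher in nuclear and 1.96-fold higher in polysomal RNA (adjusted p 2.25e-05 each), and all 36 nuclear libraries lay above the highest wild-type one. C1qb to C1qc was 1.4-fold higher in nuclear RNA (adjusted p 5.40e-05) and 0.842-fold in polysomal RNA (adjusted p 0.108). In Bmal1-/- the 3 ratios did not pass (adjusted p 0.493, 0.0790 and 0.0658 by the permutation test). By the same permutation test, C1qa to C1qc passed without replicate 1 (log2 -0.24, adjusted p 0.00221) and within numbers 4 to 6 (-0.27, adjusted p 0.0197). C1qb to C1qc also passed without replicate 1 (-0.24, adjusted p 0.0149) and within numbers 4 to 6 (-0.24, adjusted p 0.0417).

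Polysomal replicate 1 stood apart. Its 6 libraries had C1qa to C1qb ratios of 0.820 to 1.34, with a mean of 0.967 as in total RNA, while the means of replicates 2 to 6 were between 2.00 and 3.70. C1qb averaged 76.8 CPM in that replicate and 14.5 to 56.1 CPM in the others. Without it the polysomal C1qa to C1qb ratio was 2.79-fold higher than in total RNA (adjusted p 2.25e-05), and C1qb to C1qc was 0.717-fold and passed (permutation test, adjusted p 0.000645). Its Neat1 (9.42 CPM) and Malat1 (66.0 CPM) medians were at the low polysomal levels.

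Polyadenylation sites gave a further readout, the place where a transcript ends. Sites from the authors' filtered list were matched to genes through RefSeq GRCm38.p6 positions, and the submitters' processing notes name the builds mm10 and GRCm38.p5 without saying which step used which. Cd5l, Vsig4, C1qa, C1qb and C1qc had 1 site each in that list, so no shift between listed sites could be seen. Some tags lay outside the listed site (for Vsig4 it held 33.5 of 38.4 CPM in wild-type total RNA). Clec4f, Marco, Adgre1 and Csf1r had 2 and Timd4 had 4. Over all replicates only Adgre1 and Clec4f had 2 sites with enough counts to test. In Bmal1-/- 0 of these 4 sites changed in share (edgeR, 10.3% of sites called, 0 at an unadjusted p under 0.05), while in nuclear (80.8%) and polysomal RNA (72.5%) all 4 did. Within a gene the share of 1 site falls as that of the other rises, so these are results for 2 genes.

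Adgre1 ended at chr17:57483398-57483483 (proximal) or chr17:57483513-57483532 (distal), both on the plus strand at the annotated end of the gene. The distal share in total RNA was 31.6% ± 13.2 (SD, n = 36) for wild type and 34.7% ± 13.1 for Bmal1-/-, a difference within the spread (log2 0.14, adjusted p 0.559). It was 71.4% ± 18.9 in nuclear RNA (log2 1.16, adjusted p 9.03e-14) and 55.8% ± 13.8 in polysomal RNA (0.87, adjusted p 6.78e-10), higher at 6 of 6 times in each. These shares rest on a mean of 75.5 site counts per library in total, 26.2 in nuclear, 151 in polysomal and 45.8 in Bmal1-/- RNA. Pooled over times the distal share was 22 to 44.7% among the 6 replicate numbers of total RNA and 50.9 to 78.7% among those of nuclear RNA. Polysomal replicate 1 was again the exception at 35.6%, against 51.5 to 63.0% in replicates 2 to 6. For Clec4f the proximal site (chr6:83645223-83645305, minus strand) held 12.9% ± 4.47 in total, 7.29% ± 4.91 in nuclear (log2 -0.82, adjusted p 9.71e-05) and 3.94% ± 3.49 in polysomal RNA (-1.66, adjusted p 5.95e-10). The most distal Timd4 site (chr11:46844327-46844342, plus strand) held 13.4% of the site counts in total and 53.5% in nuclear RNA, from 13 and 4.92 site counts per library, too few to test.

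**Figure D5:**
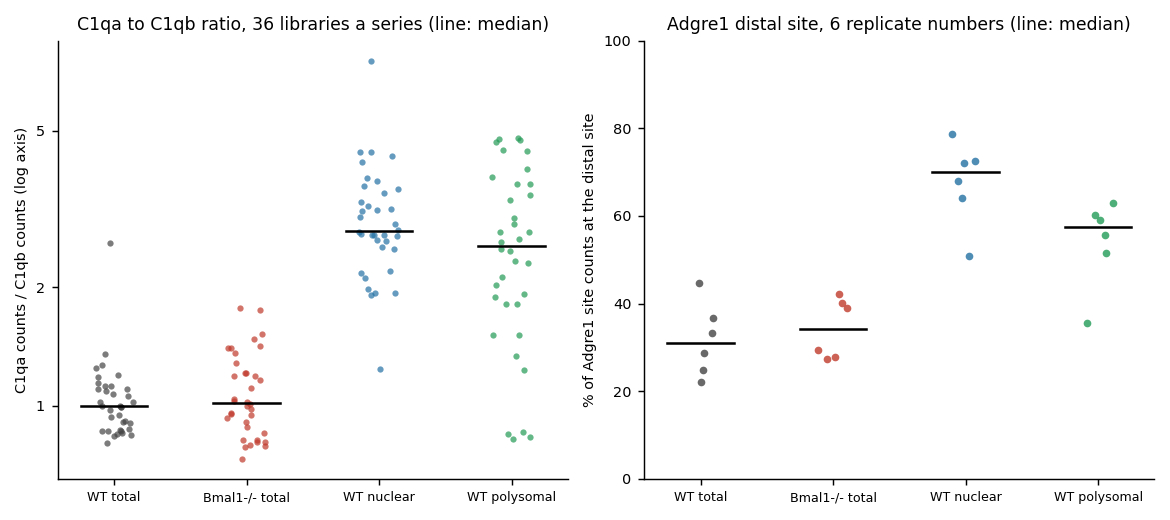
Left, the ratio of C1qa to C1qb counts in each library (log axis, line at the median of 36); right, the share of Adgre1 site counts at the distal site for each of 6 replicate numbers pooled over times (line at the median). Total RNA of both genotypes lies near a ratio of 1, nuclear and polysomal RNA lie above it, and a few polysomal libraries, those of replicate 1, lie with total RNA in both panels.

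The other Kupffer cell genes were for the most part lower in Bmal1-/- over all replicates. Of 26 tested regulators and receptors of these cells, 16 were lower and 3 higher, with a median log2 change of -0.31, against 21.7% lower and 22.4% higher over all genes. The sum of the list did not follow the markers by replicate set. In numbers 1 to 3 the list summed to 833 CPM in wild type and 869.7 CPM in Bmal1-/-. The markers summed to 532 and 325 CPM there. In numbers 4 to 6 the list summed to 763 and 676 CPM, and the markers to 332 and 336 CPM. Among receptors, Folr2 (folate uptake) changed by -0.85, the high-affinity IgG receptor Fcgr1 by -0.80 and the integrin chain Itgal by -0.56. Among regulators, Spic (-0.60), Spi1 (-0.49), Irf8 (-0.37) and Nr1h3 (-0.21) were lower. Id3 (0.08), Zeb2 (-0.02), the haemoglobin receptor Cd163 (-0.07) and the ligand gene Csf1 (-0.20) did not pass, while the second CSF1R ligand, Il34, was lower (-0.47). Cx3cr1, the fractalkine receptor of monocytes and of capsular and other macrophages, was the largest riser, from 0.737 to 4.56 CPM (2.57, adjusted p 3.57e-16). Its wild-type counts alone averaged too few for the count filter, and the Bmal1-/- libraries carried it past. The size of its rise thus rests on a wild-type level near the floor. Irf5 (0.54) and Maf (0.12) were also higher. In nuclear RNA 11 of 26 were higher and 8 lower (41.6% and 42.1% of all genes), and in polysomal RNA 11 of 25 were higher and 7 lower (38.8% and 37.2% of all genes).

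General macrophage genes showed 15 of 20 lower and 2 higher in Bmal1-/- (median -0.48), among them Aif1 (-0.75), Grn (-0.63) and Lcp1 (-0.35), with Mpeg1 (0.55) and Ctsz (0.32) higher. Of 5 recruited monocyte and lipid-associated macrophage genes 3 were lower, including Ccr2 (-0.68), and Cd9 was higher (1.32). Neutrophil genes gave 1 lower and 1 higher of 3 (S100a8 -0.98, Mmp9 1.80), lymphocyte genes 3 of 3 lower, red blood cell genes 4 of 5 lower, and the 1 dendritic cell gene tested, Zbtb46, was at -0.03 and not called. In wild-type libraries alone only 2 neutrophil genes passed the count filter, so the Bmal1-/- libraries carried another past it. The neutrophil counts by direction thus rest partly on the filter. Sinusoidal endothelial genes gave 6 of 16 lower, including Lyve1 (-0.74), and 2 higher, with a median of -0.10. Against 21.7% lower and 22.4% higher of all genes, stellate cell genes gave 4 lower and 3 higher of 11, hepatocyte genes 3 lower and 2 higher of 10, and bile duct genes 2 of 2 higher (Sox9 1.44, Spp1 1.20). Over all replicates the fall was thus shared by general macrophage, lymphocyte and red blood cell lists. In numbers 1 to 3 these lists summed to 1003, 49.1 and 4002 CPM in wild type and 749, 16.4 and 1814 CPM in Bmal1-/-. In numbers 4 to 6 the sums lay closer, at 849, 22.2 and 1984 CPM in wild type and 892, 21.3 and 1668 CPM in Bmal1-/-. The part of blood content in the fall was not tested.

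Across the 36 wild-type total libraries, with time means removed, the markers rose and fell together. The median correlation of the 45 pairs was 0.73 (range 0.42 to 0.94), and it was 0.71 in Bmal1-/-, 0.60 in nuclear and 0.61 in polysomal RNA. The points share libraries and their depth, so these values are descriptions. Ranked among 11954 genes by correlation with the mean of the markers over those 36 libraries, the most alike were Cybb (0.92), Tyrobp (0.92), Cd68 (0.91), Apbb1ip (0.90), Axl (0.90), Lyz2 (0.90), Ctss (0.87), Cotl1 (0.87), P2ry13 (0.87) and Dock10 (0.87). Of these 10, 5 are on the general macrophage list. In the other series the correlation of Axl was 0.79 (Bmal1-/-), 0.81 (nuclear) and 0.69 (polysomal), and that of Dock10 was 0.48, 0.13 and 0.66.

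Marco stood out for single libraries. It reached 134 CPM in wild-type total RNA at ZT10 (replicate 2), 219.7 CPM in nuclear RNA at the same time and replicate number, and 52.4 CPM in polysomal RNA at ZT10 (replicate 5). The next highest libraries were at 25.5, 33.5 and 14.7 CPM. Without the highest library of each series Marco averaged 5.0 CPM ± 4.49 in total, 9.63 CPM ± 7.89 in nuclear and 3.03 CPM ± 3.20 in polysomal RNA (SD, n = 35). The total RNA library was also the highest of 36 for the sum of the markers (1169 CPM, the others 209.9 to 864), for general macrophage genes (1436 CPM) and for sinusoidal endothelial genes (599 CPM).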

How the data were processed

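The authors deposited raw counts per gene symbol and per polyadenylation site for each library, with no pooling, and per the submitters' processing notes the tools include STAR 2.4.2a, HOMER and edgeR (roles not given) and the builds mm10 and GRCm38.p5. All levels and tests start from these deposited counts. Groups came from sample titles, and 0 columns lacked a sample. Of 360 pairs of libraries within groups, 0 were identical.

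The markers, the other gene lists and the tests were chosen with earlier results of these data known. Tests used R 4.3.3 and edgeR 4.0.16 (robust quasi-likelihood F test, TMM, genes averaging 10 or more counts a library, Benjamini-Hochberg over all genes, threshold 0.05), with 12 groups of series and time for levels and a 24 h cosine and sine for rhythm. Site usage replaced the TMM library size by the logarithm of the gene's site counts plus 0.5 as offset, for genes averaging 50 or more counts and sites holding 5% or more of them. Alternatives included DESeq2 1.42.0, other filters, each replicate number left out, each set of numbers alone, and a replicate block. Set comparisons, C1q ratios and the removal of Xist-high and Marco-high libraries were added after seeing the data. All 10 markers were named, the genes most like them by rank of correlation, and the list genes given as examples were chosen after their values were seen. The lists covered Kupffer cell regulators and receptors, general macrophages, recruited monocytes, neutrophils, lymphocytes, dendritic, sinusoidal endothelial, stellate, bile duct, hepatocyte and red blood cells. The numbers shared between wild-type total and the other series were not treated as pairs. Scripts were tested on simulated data. There the wild-type rhythm test found 30.3% of rhythms with a peak-to-trough ratio of 1.5 and 71% of those with 2. The test of a rhythm difference in Bmal1-/- found 6% and 47%, so rhythms of these sizes can be missed. Intervals of log2 changes are 95%. Counts from 3′ tags carry no molecular identifiers here, and strand of counting is not given in the sources used here.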

Additional observations from a re-analysis of the deposited data

Results flagged for a closer look

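Within groups of 6 libraries of 1 series and time, single libraries stood far from the other 5 for 32 of 240 combinations of marker and group. If values in a group had a normal spread, about 1 in 20, or 12.0, would be flagged. CPM values are skewed towards high values, so that rate does not hold here and no excess is read from the count. In all 32 the library was the highest of its group, the side to which such skewed values reach. The markers share libraries, so these are not 32 separate events.

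The wild-type total RNA library of replicate 2 at ZT10 stood apart for 7 markers, with Cd5l at 412 CPM, Marco at 134 CPM, C1qa at 84.8 CPM, C1qb at 75.8 CPM, C1qc at 126 CPM, Adgre1 at 46.1 CPM and Timd4 at 15.6 CPM. The nuclear library of the same number and time stood apart for Marco (219.7 CPM) and Adgre1 (19.0 CPM). Wild-type replicate 1 at ZT18 stood apart for 5 markers, Cd5l (168 CPM), Vsig4 (52.2 CPM), C1qa (51.6 CPM), C1qc (73.5 CPM) and Csf1r (90.7 CPM), and wild-type replicate 3 at ZT22 for C1qb (89.9 CPM) and Csf1r (179 CPM).

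Polysomal replicate 5 at ZT10 was high in Cd5l (308 CPM), Marco (52.4 CPM), C1qa (219.7 CPM) and Csf1r (71.8 CPM). Polysomal replicate 1 at ZT22, which also had high Xist, was high in C1qb (85.3 CPM) and Csf1r (83.9 CPM). Marco in polysomal replicate 6 at ZT6 was at 7.86 CPM, and C1qa in polysomal replicate 4 at ZT14 was at 165 CPM. Nuclear replicate 3 was high at ZT6 in Clec4f (93.2 CPM) and C1qa (216 CPM), and at ZT22 in Clec4f (84.0 CPM), Cd5l (219 CPM) and C1qc (92.4 CPM). Timd4 in nuclear replicate 4 at ZT2 was at 7.49 CPM. In Bmal1-/- Marco was at 19.4 CPM in replicate 6 at ZT2 and at 4.15 CPM in replicate 4 at ZT10.

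The difference from wild-type total RNA was itself different between numbers 4 to 6 and 1 to 3, by edgeR's interaction test on the log2 scale. In Bmal1-/- this held for Cd5l (1.01) and C1qc (0.53). In polysomal RNA it held for Adgre1 (1.5), Cd5l (1.42), Csf1r (0.92), Marco (2.82), C1qa (1.04), C1qc (1.27), Vsig4 (1.33) and Timd4 (1.20). These polysomal values hold only if a replicate number means the same in polysomal and total RNA, which the labels do not say, and the mean of the markers correlated at -0.48 between same-numbered libraries. That of Csf1r was lost without replicate 2, 3, 4 or 5 and without the highest Marco libraries.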

How the results depend on the processing

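The Bmal1-/- count of 9 lower markers stayed at 9 with DESeq2, and was 5 within numbers 4 to 6. Over single markers and alternatives of that comparison, 143 kept direction and side of the threshold, 4 lost and 2 gained the call, and Cd5l turned to 0.31 within numbers 4 to 6. The 13 calls by time became 4 with all 4 series in 1 fit, 8 with all genes of at least 1 count, 1 within numbers 4 to 6, and 4 to 14 leaving out each replicate number. The set difference in Bmal1-/- was called for 1 marker without the highest Marco library and 1 to 2 leaving out each number, and that of Clec4f then ran from -0.09 to 0.20. Calls between sets numbered 0 to 2 in nuclear and 3 to 6 in polysomal RNA on leaving out each number. The rhythm difference of Bmal1-/- was called for 1 marker by DESeq2, 1 without the Xist-high libraries and 0 to 1 leaving out each number, and the wild-type rhythm for 0 to 1. Nuclear site usage gave 2 calls at 200 counts or within numbers 4 to 6, and 2 to 4 leaving out each number, with fewer sites tested wherever it gave 2, and 6 within numbers 1 to 3, where the 2 Marco sites were also tested and called. The Adgre1 distal site in Bmal1-/- ran from -0.01 to 0.27.

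Polysomal values reversed most. Within numbers 4 to 6 C1qb was 0.16, C1qc 0.55, Cd5l 0.18 and Marco 0.24, and within numbers 1 to 3 Timd4 was -0.38 and Vsig4 -0.30. Leaving out each number C1qb ran from -0.32 to 0.17 and C1qc from -0.24 to 0.11. In Bmal1-/- the log2 ratios within numbers 4 to 6 were -0.03 (C1qa to C1qb), -0.27 (C1qa to C1qc) and -0.24 (C1qb to C1qc), and leaving out each number the latter pair ran from -0.24 to -0.10 and from -0.24 to -0.15, both passing within numbers 4 to 6 and without replicate 1. Polysomal C1qb to C1qc was -0.48 within numbers 4 to 6 and without polysomal replicate 1, and -0.57 to -0.13 leaving out each number. The cause of these changes was not tested.

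With the replicate number as a block, the counts were 9 (Bmal1-/-), 9 (nuclear, adding C1qb at -0.30, adjusted p 0.0387) and 7 (polysomal), with 19 by time. The block of 36 pairs gave 10 in nuclear, adding C1qb (-0.34, adjusted p 0.0313) and Timd4 (-0.27, adjusted p 0.0435), and 7 in polysomal RNA. Same-numbered libraries correlated at a mean of 0.30 (nuclear), 0.063 (Bmal1-/-) and -0.12 (polysomal) with wild-type total RNA, with 29, 13 and 0 of 36 best with their own number. Timd4 and Marco had the lowest mean levels in wild-type total RNA, no Timd4 or Marco site had enough counts for a usage test over all replicates, and 9 markers were tested for polysomal rhythm within numbers 1 to 3.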
